A study of Homo sapiens with 8 samples.

Results

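The FOS, JUN and EGR genes encode DNA-binding transcription factors of the immediate early response. The group comprised FOS, FOSB, FOSL1, FOSL2, JUN, JUNB, JUND, EGR1, EGR2 and EGR3. Each was read from the probe set that the platform annotation pairs with that gene alone, and the brightest probe set over the 8 arrays was taken where a gene had several. Of the 10 genes, 9 were measured, among 18417 genes in all, and each of the 9 had a single such probe set. EGR2 has no value here. RNA came from 4 groups of 2 Affymetrix arrays: HCC1937 with COH29, HCC1937 without it (control), HCC1937+BRCA1 with COH29, and HCC1937+BRCA1 without it (control). HCC1937 is a breast cancer line whose BRCA1 is truncated, labelled BRCA1 deficient, and HCC1937+BRCA1 is the same line with exogenous wild-type BRCA1. COH29, a ribonucleotide reductase inhibitor, was given at 10 µM for 24 h. The vehicle, the hours of the control cultures, the BRCA1 vector and the number of clones are not given in the sources used here. Nothing in the labels tells if the paired arrays of a group stem from distinct cultures, and the p-values therefore reflect only the array-to-array spread, possibly a technical one. In bulk RNA, fewer cells of a kind and less RNA per cell cannot be told apart.

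FOS and JUN proteins pair through leucine zippers to form AP-1, which binds DNA at TPA-responsive elements and, in some pairings, at cyclic AMP response elements (CREs). JUN proteins can pair with each other or with FOS proteins, whereas FOS proteins need a JUN-type partner. EGR proteins bind GC-rich DNA through zinc fingers and are restrained by the NAB corepressors. FOS and EGR1 are switched on within minutes when MAP kinases phosphorylate ternary complex factors bound with SRF at CArG boxes. JUN protein is phosphorylated by the stress kinase JNK and ATF2 protein by the stress kinases JNK and p38, and both proteins act on the JUN promoter. In breast cancer cells these factors connect growth factor and stress signals to genes of proliferation, adhesion and invasion.

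The sequences before the start sites of 4 members are shown because EGR1 and FOS differed most between the lines without drug, while JUN and JUND rose with COH29 in both lines. Each run is the 250 bases upstream of the RefSeq start site on build GRCh38.p14, read 5′ to 3′ on the strand of the gene. Capitals mark matches, on either strand, to the CArG box, the full CRE TGACGTCA, its half-site TGACG, the AP-1 site TGANTCA, the AP-1-like sites TGACATCA and TTACCTCA known from the JUN promoter, the EGR site GCGNGGGCG and the TATA box TATAAA. The half-site lies within the full CRE, so their matches overlap.
EGR1, chr5:138465229-138465478, plus strand: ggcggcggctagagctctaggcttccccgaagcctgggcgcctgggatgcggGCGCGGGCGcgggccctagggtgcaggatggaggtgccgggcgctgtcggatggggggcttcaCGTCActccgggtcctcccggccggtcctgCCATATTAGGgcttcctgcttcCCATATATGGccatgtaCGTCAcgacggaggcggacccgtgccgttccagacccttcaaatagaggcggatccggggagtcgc
FOS, chr14:75278578-75278827, plus strand: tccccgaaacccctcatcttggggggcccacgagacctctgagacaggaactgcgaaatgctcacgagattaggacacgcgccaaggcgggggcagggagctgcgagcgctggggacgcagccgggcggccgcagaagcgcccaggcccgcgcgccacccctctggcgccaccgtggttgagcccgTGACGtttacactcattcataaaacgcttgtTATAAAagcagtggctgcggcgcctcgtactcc
JUN, chr1:58784048-58784297, minus strand: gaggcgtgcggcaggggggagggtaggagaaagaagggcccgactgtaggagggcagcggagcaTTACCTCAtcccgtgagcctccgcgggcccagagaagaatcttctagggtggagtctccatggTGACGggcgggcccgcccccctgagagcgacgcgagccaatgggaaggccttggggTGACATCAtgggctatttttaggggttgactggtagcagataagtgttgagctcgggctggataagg
JUND, chr19:18281623-18281872, minus strand: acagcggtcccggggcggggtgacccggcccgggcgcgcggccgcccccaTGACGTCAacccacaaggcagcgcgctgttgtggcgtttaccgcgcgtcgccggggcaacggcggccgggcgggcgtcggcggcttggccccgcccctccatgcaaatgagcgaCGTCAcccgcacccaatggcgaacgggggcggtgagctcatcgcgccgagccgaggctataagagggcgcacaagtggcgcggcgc
The EGR1 window held 2 CArG boxes, which began 105 and 83 bases before the start site. It also held 1 match to the EGR site pattern, with C at the open base N, beginning 198 bases before the start. A CArG box occurred in 1.16% of the 35116 RefSeq windows of this length. The FOS window held a CRE half-site beginning 64 bases before the start and a TATA box. In JUN, TGACATCA began 67 bases and TTACCTCA 186 bases before the start, motifs present in 2.37% and 0.644% of all windows. The full CRE of JUND began 200 bases before the start, and 1.65% of all windows held one. The CRE half-site was present in all 7 measured members that had a window in the table (FOS, FOSB, FOSL2, JUN, JUNB, JUND and EGR1), and in 21.2% of all windows. The TATA box was found in 3 of the 7 (FOS, FOSB and JUNB) and in 10.7% of all windows, the EGR site in 1 of the 7 and in 8.41%, and TGANTCA in 0 of the 7 and in 6.57%. EGR2, which has 3 windows in the table, is outside these counts. Its window 3 held 1 CArG box, beginning 71 bases before the start, and 2 CRE half-sites, and the other windows held none of the motifs. Bases further upstream than 250 were not searched, so a window without a CArG box, as for FOS, does not show that the promoter lacks one. The motifs were chosen with the measured values known, and a match is a description of letters only.

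**Figure D1:**
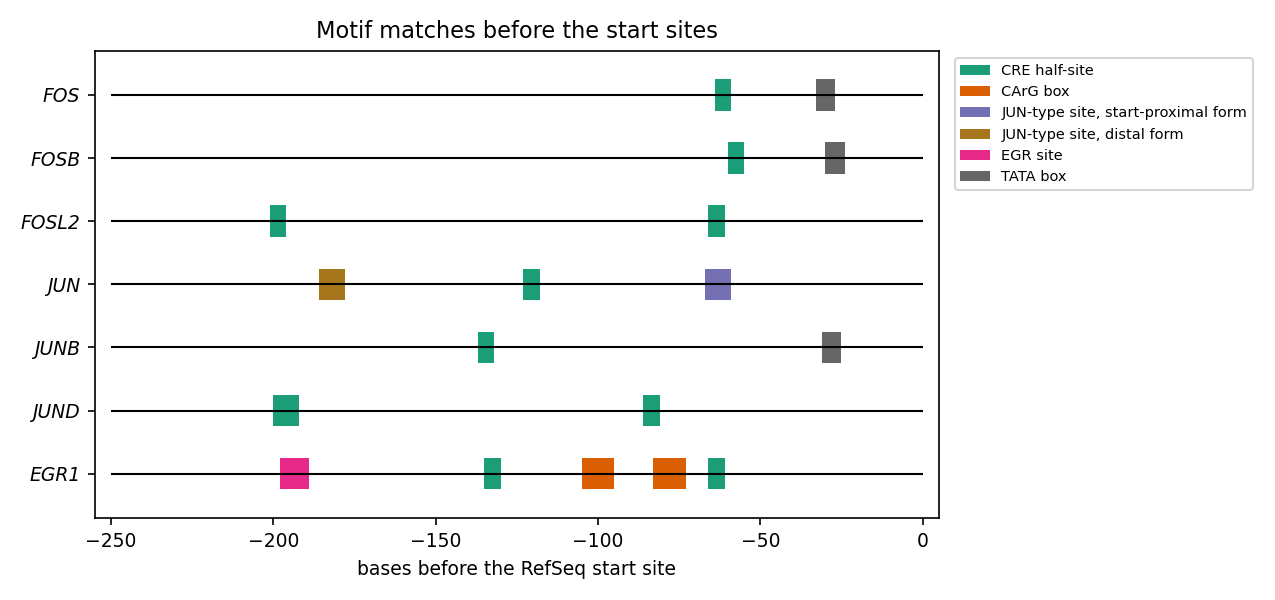
Motif matches in the 250 bases before the RefSeq start site of 7 members; the horizontal axis gives bases before the start, and coloured boxes mark matches on either strand. Each of the 7 lines carries at least 1 CRE half-site, and the paired half-sites on the left of JUND form its full CRE. Within these 250 bases EGR1 alone among the 7 carries CArG boxes (EGR2 is not drawn), and bases further upstream were not searched.

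Values are log2 intensities, so a difference of 1 is a 2-fold change. The replicate arrays had r of 0.996 to 0.997 over all genes, and the median standard error of a COH29 effect was 0.103. The epithelial genes KRT8 and EPCAM lay between 13.13 and 13.33 and between 12.07 and 12.31 on the 8 arrays. KRT18 and CDH1 lay between 12.89 and 13.08 and between 12.03 and 12.60, but KRT19, also epithelial, only between 7.61 and 8.62. The fibroblast gene COL1A1 lay between 7.78 and 8.16, COL1A2 between 6.37 and 6.77, COL3A1 between 6.60 and 6.99 and PDGFRB between 6.20 and 6.70. The pan-leukocyte gene PTPRC lay between 3.73 and 4.31. The marker genes CD14 (monocytes) and PECAM1 and CDH5 (endothelium) moved with the groups. CD14 ranged from 9.38 to 9.57 in HCC1937 with COH29, from 10.47 to 10.74 in HCC1937 controls, from 6.62 to 6.81 in HCC1937+BRCA1 with COH29 and from 6.81 to 6.87 in HCC1937+BRCA1 controls. PECAM1 ranged from 7.30 to 7.40, 9.23 to 9.37, 6.51 to 6.75 and 8.08 to 8.14 in the same groups, and CDH5 from 7.39 to 7.56, 8.72 to 8.78, 6.88 to 6.94 and 7.33 to 7.50. The part of these genes in the results below was not tested. Genes were called at a limma adjusted p under 0.05, with Benjamini-Hochberg adjustment over all 18417 genes. With COH29, 22.7% of all genes were called in HCC1937 (10.2% higher, 12.5% lower) and 33.6% in HCC1937+BRCA1 (13.6% higher, 20.1% lower). Higher genes made up 44.8% of the HCC1937 calls and 40.3% of the HCC1937+BRCA1 calls. They made up 52.1% and 54.4% once each array was shifted to one median, and 44.2% and 43.3% after cyclic loess.

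Among the JUN genes, JUN and JUND rose with COH29 in both lines, and JUNB in HCC1937+BRCA1. JUN, the classical AP-1 subunit and target of JNK, measured 10.79 and 10.90 in HCC1937 with COH29, against 9.74 and 9.82 in HCC1937 controls. In HCC1937+BRCA1 it measured 11.40 and 11.37 with COH29, against 9.33 and 9.41 in controls. The arrays with COH29 lay above the controls in each line without overlap, and the control arrays of HCC1937+BRCA1 were the lowest of all. JUN rose by 1.06 ± 0.09 (SE, n = 2 arrays per group), a 2.09-fold change, in HCC1937 (limma adjusted p = 8.19e-05). In HCC1937+BRCA1 it rose by 2.02 ± 0.09, a 4.05-fold change (limma adjusted p = 1.68e-06).

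JUND, an AP-1 subunit present in most resting cells and often linked to slower growth, measured 10.44 and 10.41 in HCC1937 with COH29, against 9.37 and 9.33 in HCC1937 controls. It measured 10.62 and 10.91 in HCC1937+BRCA1 with COH29, against 9.24 and 9.37 in HCC1937+BRCA1 controls. The controls of the lines overlapped, while every array with COH29 lay above every control. The changes were 1.07 ± 0.11 (2.10-fold) in HCC1937 and 1.46 ± 0.11 (2.75-fold) in HCC1937+BRCA1, with limma adjusted p = 0.000215 and 2.27e-05. JUNB, which can oppose JUN at some promoters, measured 11.22 and 11.16 in HCC1937 with COH29, against 11.16 and 10.99 in HCC1937 controls. Its difference there was 0.11 ± 0.09, with a 95% interval from -0.09 to 0.31 (limma adjusted p = 0.417). In HCC1937+BRCA1, JUNB measured 11.26 and 11.27 with COH29, against 10.75 and 10.82 in controls, a rise of 0.48 ± 0.09 (limma adjusted p = 0.00292).

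**Figure D2:**
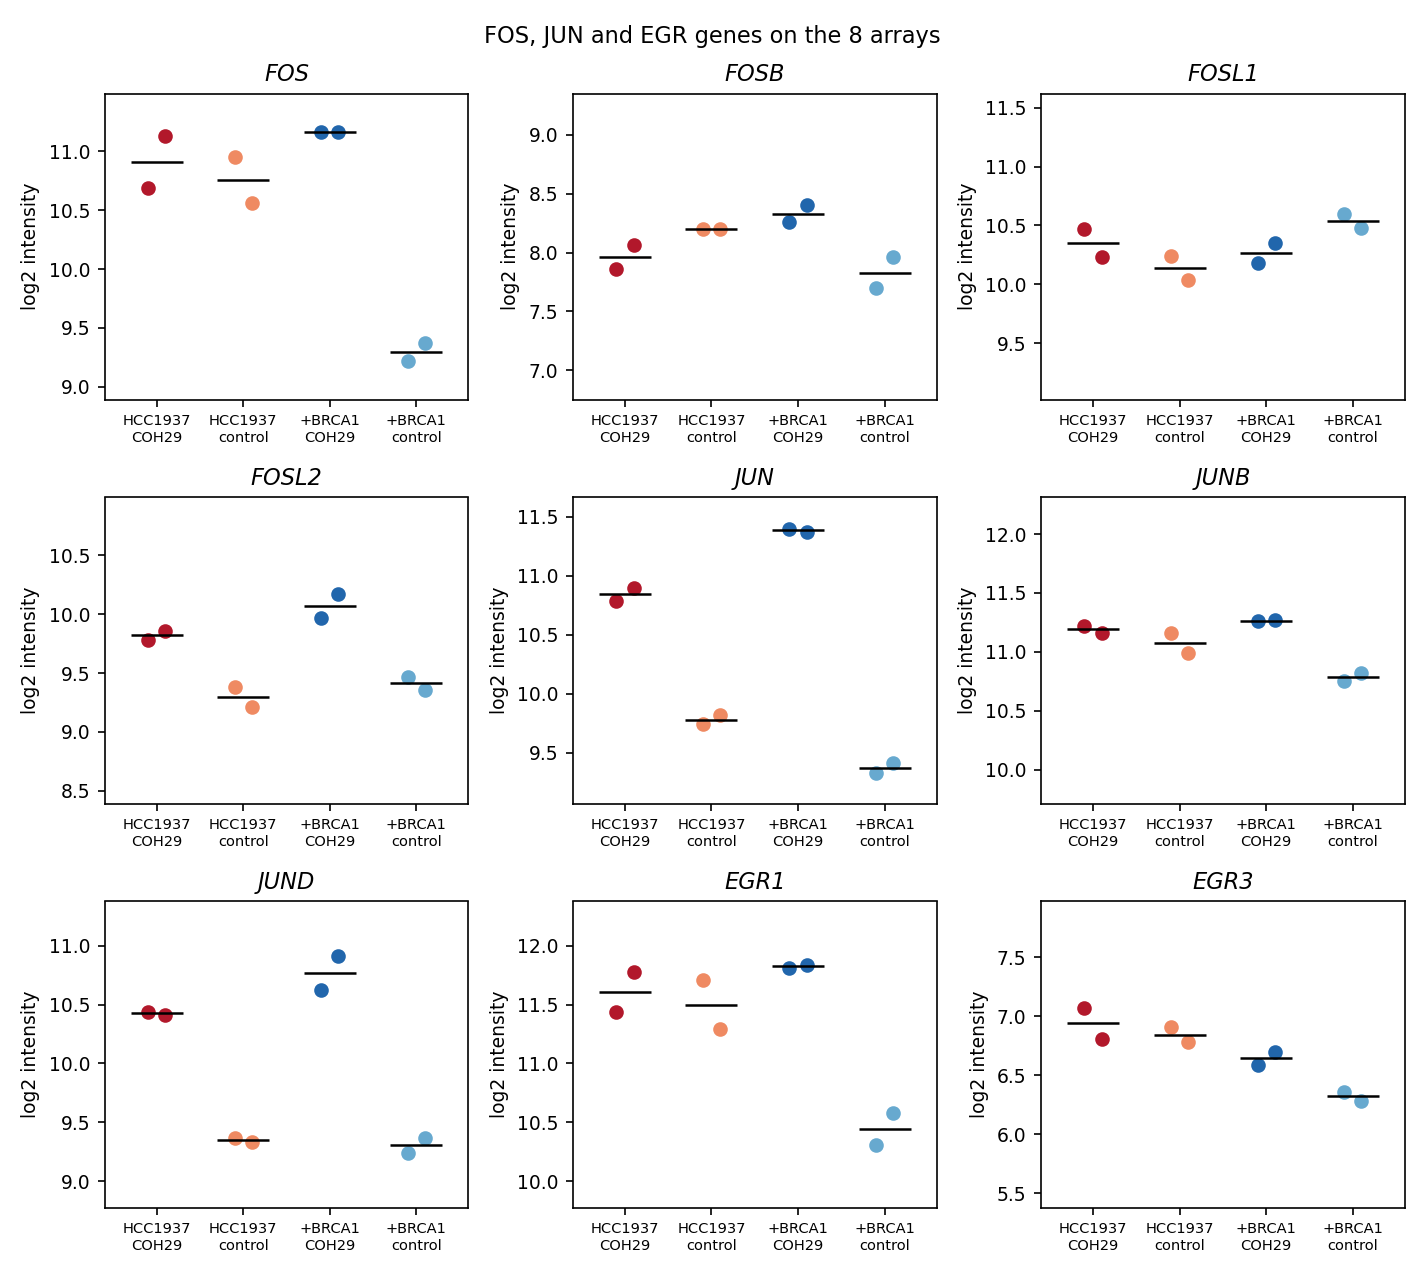
Log2 intensity of 9 genes on the 8 arrays; each point is an array, bars are means of the 2 arrays of a group, and every vertical axis spans the same number of log2 units. FOS and EGR1 are low in HCC1937+BRCA1 controls only, whereas JUN and JUND are low in the controls of both lines.

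The FOS genes did not move as a block. FOS, the founding partner of JUN, measured 10.69 and 11.13 in HCC1937 with COH29, against 10.95 and 10.56 in HCC1937 controls. In HCC1937+BRCA1 it measured 11.16 on each array with COH29, against 9.22 and 9.37 in controls. The HCC1937 groups overlapped, and the HCC1937+BRCA1 controls stood below the other 6 arrays. In HCC1937 the difference was 0.16 ± 0.16, with a 95% interval from -0.21 to 0.52 (limma adjusted p = 0.531). In HCC1937+BRCA1 FOS rose by 1.87 ± 0.16, a 3.64-fold change (limma adjusted p = 4.96e-05). Over 15 alternative settings the HCC1937 difference ran from -0.06 to 0.37 and was never called.

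FOSL2, which encodes the Fra-2 protein, rose in both lines. It measured 9.78 and 9.86 in HCC1937 with COH29, against 9.38 and 9.21 in HCC1937 controls, a rise of 0.52 ± 0.10 (limma adjusted p = 0.00681). In HCC1937+BRCA1 it measured 9.97 and 10.17 with COH29, against 9.47 and 9.36 in controls, a rise of 0.65 ± 0.10 (limma adjusted p = 0.0013). Without HCC1937 control replicate 2 the HCC1937 rise was 0.44 (adjusted p = 0.0631). FOSB, a close relative of FOS, measured 7.86 and 8.06 in HCC1937 with COH29, against 8.20 on each HCC1937 control array. That difference was -0.24 ± 0.11, with a 95% interval from -0.49 to 0.02 (limma adjusted p = 0.177). In HCC1937+BRCA1 FOSB measured 8.26 and 8.40 with COH29, against 7.70 and 7.96 in controls, a rise of 0.50 ± 0.11 (limma adjusted p = 0.00851). That call was lost on omitting HCC1937+BRCA1 COH29 replicate 2 (adjusted p = 0.0608) or control replicate 1 (adjusted p = 0.0686).

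FOSL1, which encodes Fra-1, an AP-1 subunit prominent in basal-type breast cancer cells, did not pass the test in either line. It measured 10.47 and 10.23 in HCC1937 with COH29, against 10.24 and 10.04 in HCC1937 controls, a difference of 0.21 with a 95% interval from -0.06 to 0.47 (limma adjusted p = 0.243). In HCC1937+BRCA1 it measured 10.18 and 10.35 with COH29, against 10.60 and 10.48 in controls. There the difference was -0.27 with a 95% interval from -0.53 to -0.01 (limma adjusted p = 0.105). It was the only one of the 9 genes with a negative value in HCC1937+BRCA1. With a trended and robust variance estimate that difference was called (adjusted p = 0.0326).

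EGR1 followed FOS. EGR1, a zinc finger activator induced by growth factors and stress, measured 11.44 and 11.78 in HCC1937 with COH29, against 11.71 and 11.29 in HCC1937 controls. It measured 11.81 and 11.84 in HCC1937+BRCA1 with COH29, against 10.31 and 10.58 in HCC1937+BRCA1 controls. As for FOS, only the HCC1937+BRCA1 controls stood apart, below the other 6 arrays. The difference in HCC1937 was 0.11 ± 0.16, with a 95% interval from -0.25 to 0.47 (limma adjusted p = 0.662). In HCC1937+BRCA1 EGR1 rose by 1.38 ± 0.16, a 2.61-fold change (limma adjusted p = 0.000235). On the HCC1937 arrays FOS and EGR1 were higher on the same array of each group, COH29 replicate 2 and control replicate 1.

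EGR3, a family member that acts downstream of EGR1 in some cells, measured 7.07 and 6.81 in HCC1937 with COH29, against 6.91 and 6.78 in HCC1937 controls. The groups overlapped and the difference was 0.09 ± 0.11 (limma adjusted p = 0.585). EGR3 was the dimmest of the measured members. Its mean level of 6.69 stood at percentile 31.6 of all genes, just above the filter at the 30th percentile. In HCC1937+BRCA1 it measured 6.59 and 6.70 with COH29, against 6.36 and 6.28 in controls, a rise of 0.33 ± 0.11 (limma adjusted p = 0.043). This call was near the threshold. It ended after cyclic loess (0.20, adjusted p = 0.138), with the trended variance (adjusted p = 0.0602), without either HCC1937 control array (0.059), and without any array of HCC1937+BRCA1 (adjusted p from 0.073 to 0.185).

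In all, 3 of the 9 genes (FOSL2, JUN and JUND) were called higher with COH29 in HCC1937 and 0 lower, beside 10.2% of all genes higher and 12.5% lower. In HCC1937+BRCA1, 8 of 9 were called higher and 0 lower, beside 13.6% and 20.1% of all genes. At an unadjusted p under 0.05, FOSL1 was lower in HCC1937+BRCA1 and no gene of the 9 was lower in HCC1937. The median change of the 9 genes was 0.16 in HCC1937 and 0.65 in HCC1937+BRCA1, and that of all genes 0.04 in each line.

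**Figure D3:**
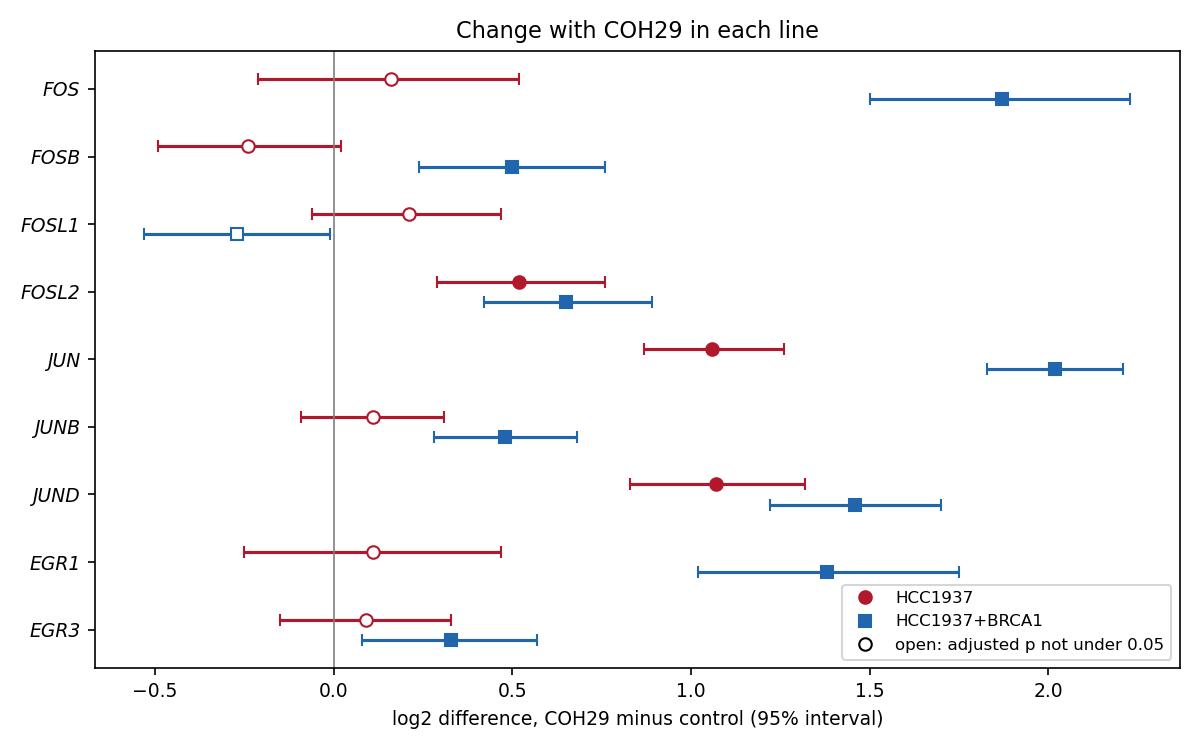
Log2 difference of COH29 minus control for 9 genes, with 95% intervals from the limma fit; circles are HCC1937, squares HCC1937+BRCA1, and filled symbols passed the adjusted p of 0.05. The circles of FOS, EGR1 and JUN lie at 0.16, 0.11 and 1.06, to the left of their squares at 1.87, 1.38 and 2.02.

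Whether the lines responded differently was tested as the COH29 effect in HCC1937 minus that in HCC1937+BRCA1. FOS, JUN and EGR1 differed, each with the smaller effect in HCC1937. The difference of effects was -1.71 ± 0.23 for FOS (limma adjusted p = 0.0145), -0.95 ± 0.12 for JUN (adjusted p = 0.0117) and -1.27 ± 0.23 for EGR1 (adjusted p = 0.0429). These were 3 of 9 genes, beside 0.543% of all genes called in this direction, 0.413% in the other and 0.956% in either, and 0 of 9 were called in the other. At an unadjusted p under 0.05, FOSL1 was the gene of the 9 with a positive value (0.48), and it was not called in the limma fit or under any alternative. The calls were sensitive to single arrays, although the sizes held. FOS lost its call without HCC1937 control replicate 1, HCC1937+BRCA1 control replicate 1 or either HCC1937+BRCA1 COH29 array (adjusted p from 0.0538 to 0.0726), at values from -1.52 to -1.71. JUN lost it without either HCC1937 control, HCC1937+BRCA1 control replicate 1 or either HCC1937+BRCA1 COH29 array (adjusted p from 0.051 to 0.0692). EGR1 lost it without any 1 of the 8 arrays (adjusted p from 0.0537 to 0.144), at values from -1.07 to -1.48. With the replicate number as a block the EGR1 value was also not called (adjusted p = 0.0742).

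For the other 6 genes no difference between the line effects was called. FOSB came nearest, at -0.74 ± 0.16 (limma adjusted p = 0.0811), and it was called after leaving out the genes with a mean level under the 30th percentile (adjusted p = 0.0378) and with the trended variance (0.0192). JUND was at -0.39 with a 95% interval from -0.73 to -0.04, and JUNB at -0.37 with an interval from -0.65 to -0.09. FOSL2 was at -0.13 (interval from -0.46 to 0.20), EGR3 at -0.24 (from -0.58 to 0.11) and FOSL1 at 0.48 (from 0.11 to 0.85).

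The lines already differed without the drug. FOS averaged 10.75 ± 0.27 (SD, n = 2) in HCC1937 controls and 9.29 ± 0.11 in HCC1937+BRCA1 controls, a difference of 1.46 ± 0.16 (SE) or 2.75-fold (limma adjusted p = 0.00015). EGR1 averaged 11.50 ± 0.29 in HCC1937 controls and 10.44 ± 0.19 in HCC1937+BRCA1 controls, a difference of 1.06 ± 0.16 or 2.09-fold (limma adjusted p = 0.000962). The arrays of the lines did not overlap for either gene. EGR3 was higher in untreated HCC1937 by 0.53 ± 0.11 and JUN by 0.41 ± 0.09 (limma adjusted p = 0.00488 and 0.00518). FOSB was higher by 0.37 (adjusted p = 0.0356) and JUNB by 0.29 (adjusted p = 0.0321). FOSL1 was lower in untreated HCC1937, at 10.14 ± 0.14 against 10.54 ± 0.08 in HCC1937+BRCA1, a difference of -0.40 ± 0.12 (limma adjusted p = 0.0282). JUND differed by 0.04 with a 95% interval from -0.20 to 0.29, and FOSL2 by -0.12 with an interval from -0.36 to 0.11.

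Thus 6 of 9 genes were higher and 1 was lower in untreated HCC1937, beside 14.8% and 16.4% of all genes and 31.2% in either direction. FOSL1 was not called with HCC1937 control replicate 2 left out (adjusted p = 0.189) or with either HCC1937+BRCA1 control left out (0.144 and 0.0563). FOSB lost its call without either HCC1937 control (0.133 and 0.128) or HCC1937+BRCA1 control replicate 1 (0.234). JUNB lost it without HCC1937 control replicate 1 (0.229) or either HCC1937+BRCA1 control (0.154 and 0.0736), and in a fit of the control arrays alone (0.0539).

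Under COH29 the order of the lines turned for JUN and FOSB, which were called higher in HCC1937 without the drug and lower with it. JUN averaged 10.85 ± 0.08 in HCC1937 with COH29 and 11.39 ± 0.02 in HCC1937+BRCA1 with COH29, a difference of -0.54 ± 0.09 (limma adjusted p = 0.00118). JUND and FOSB were also lower in HCC1937 under COH29, by -0.34 ± 0.11 and -0.37 ± 0.11 (limma adjusted p = 0.0382 and 0.0351). These were 3 of 9 genes lower and 0 higher, beside 14.2% and 17.4% of all genes and 31.6% in either direction. EGR3 was at 0.29 (adjusted p = 0.0689, unadjusted p = 0.0237) and was called higher without genes of low level (0.0383), after cyclic loess (0.0326) and without HCC1937 COH29 replicate 2 (0.0264). FOSL2 was at -0.25 (adjusted p = 0.0998) and was called lower after cyclic loess (0.0352) and with the trended variance (0.0392). The JUND call ended without HCC1937 COH29 replicate 1 (adjusted p = 0.0942) or 2 (0.128), HCC1937+BRCA1 COH29 replicate 2 (0.233) or either HCC1937 control (0.0604), and in a fit of the COH29 arrays alone (0.0741). The FOSB call ended without HCC1937 COH29 replicate 1 (0.178), either HCC1937 control (0.0568), or HCC1937+BRCA1 COH29 replicate 1 (0.0565) or 2 (0.176). FOS differed by -0.25 with a 95% interval from -0.61 to 0.12, and EGR1 by -0.21 with an interval from -0.58 to 0.15. The comparisons between lines and within lines share arrays and are not independent.

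**Figure D4:**
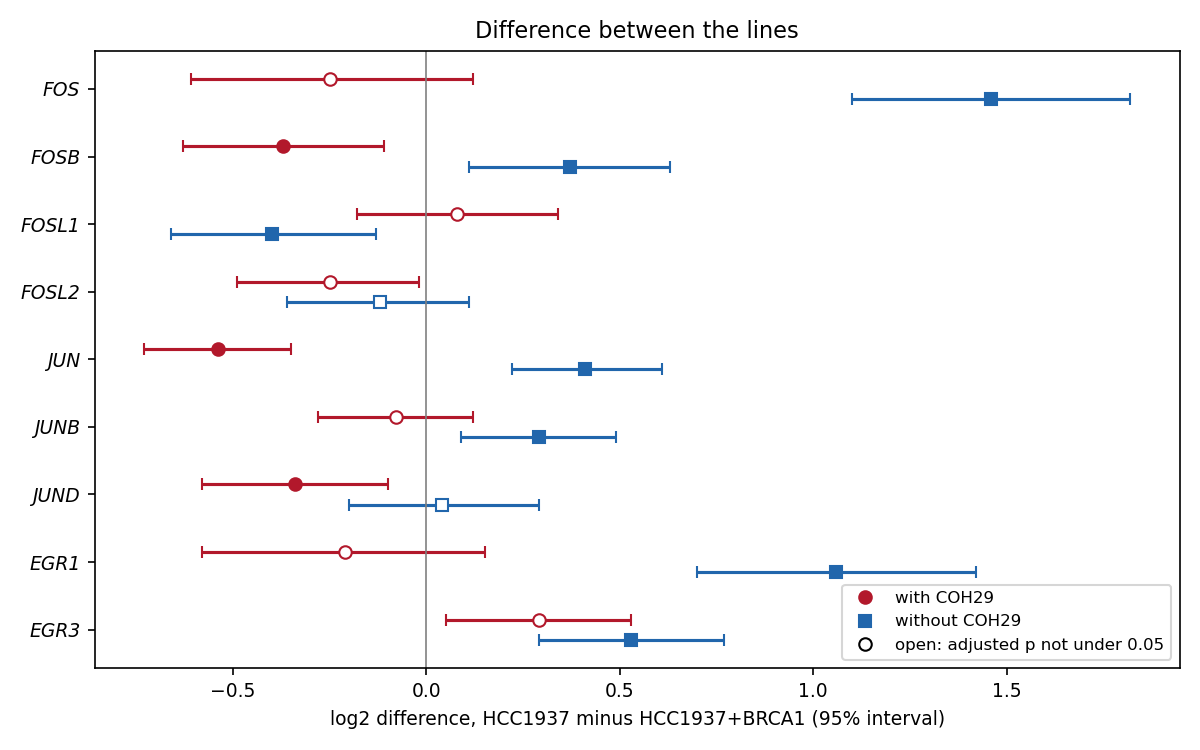
Log2 difference of HCC1937 minus HCC1937+BRCA1 for 9 genes with 95% intervals; circles compare the arrays with COH29, squares those without, and filled symbols passed the adjusted p of 0.05. FOS and EGR1 lie at -0.25 and -0.21 with COH29 and at 1.46 and 1.06 without it.

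Ordered by mean level, FOS stood at 11.16 in HCC1937+BRCA1 with COH29, 10.91 in HCC1937 with COH29, 10.75 in HCC1937 controls and 9.29 in HCC1937+BRCA1 controls. EGR1 had the same order, at 11.82, 11.61, 11.50 and 10.44. For each gene neither of the first 2 steps passed the test, and the last step did. JUN was ordered the same way, at 11.39, 10.85, 9.78 and 9.37, and each of its steps passed. FOSB had another order, at 8.33 in HCC1937+BRCA1 with COH29, 8.20 in HCC1937 controls, 7.96 in HCC1937 with COH29 and 7.83 in HCC1937+BRCA1 controls.

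Among 15 measured other immediate early genes, 11 rose with COH29 in HCC1937 and 11 in HCC1937+BRCA1, with 0 lower in either and medians of 0.41 and 0.79. The shares of all genes were 10.2% higher and 12.5% lower in HCC1937, and 13.6% and 20.1% in HCC1937+BRCA1. The genes called were not the same in both lines. KLF6 and KLF10 were called only in HCC1937, at 0.67 and 0.37 against 0.24 and 0.21 in HCC1937+BRCA1. Both were called in HCC1937+BRCA1 after the median shift and cyclic loess. KLF2 and NR4A1 were called only in HCC1937+BRCA1. The KLF6 difference of effects was positive, at 0.44 (limma adjusted p = 0.243). CCN2, a secreted matrix protein gene, rose by 0.84 ± 0.11 in HCC1937 and by 2.18 ± 0.11 in HCC1937+BRCA1, and its relative CCN1 by 0.60 and 1.44. The pluripotency and differentiation factor gene KLF4 rose by 0.79 and 1.58, and the nuclear receptor gene NR4A2 by 0.85 and 1.33 (limma adjusted p of 0.00198 or less for these values). Without HCC1937 control replicate 2 the 11 in HCC1937 became 6. The effects differed between the lines for 3 of the 15, beside 0.543% of all genes called in this direction. These were CCN2 (-1.35, limma adjusted p = 0.00785), CCN1 (-0.84, 0.0278) and NR4A1 (-1.03, 0.0158). NR4A1, a nuclear receptor gene, was at 0.06 in HCC1937 and 1.09 in HCC1937+BRCA1. KLF4 had a difference of effects of -0.79 (adjusted p = 0.0532). That value was called without genes of low level (0.0228), after the median shift (0.0444) and cyclic loess (0.0296), and with the trended variance (0.00386). Omission of any single array ended the call of CCN1, of NR4A1 or of both. Where an omission ended the gene's own call, CCN1 ran from -0.74 to -0.88 and NR4A1 from -0.94 to -1.10.

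**Figure D5:**
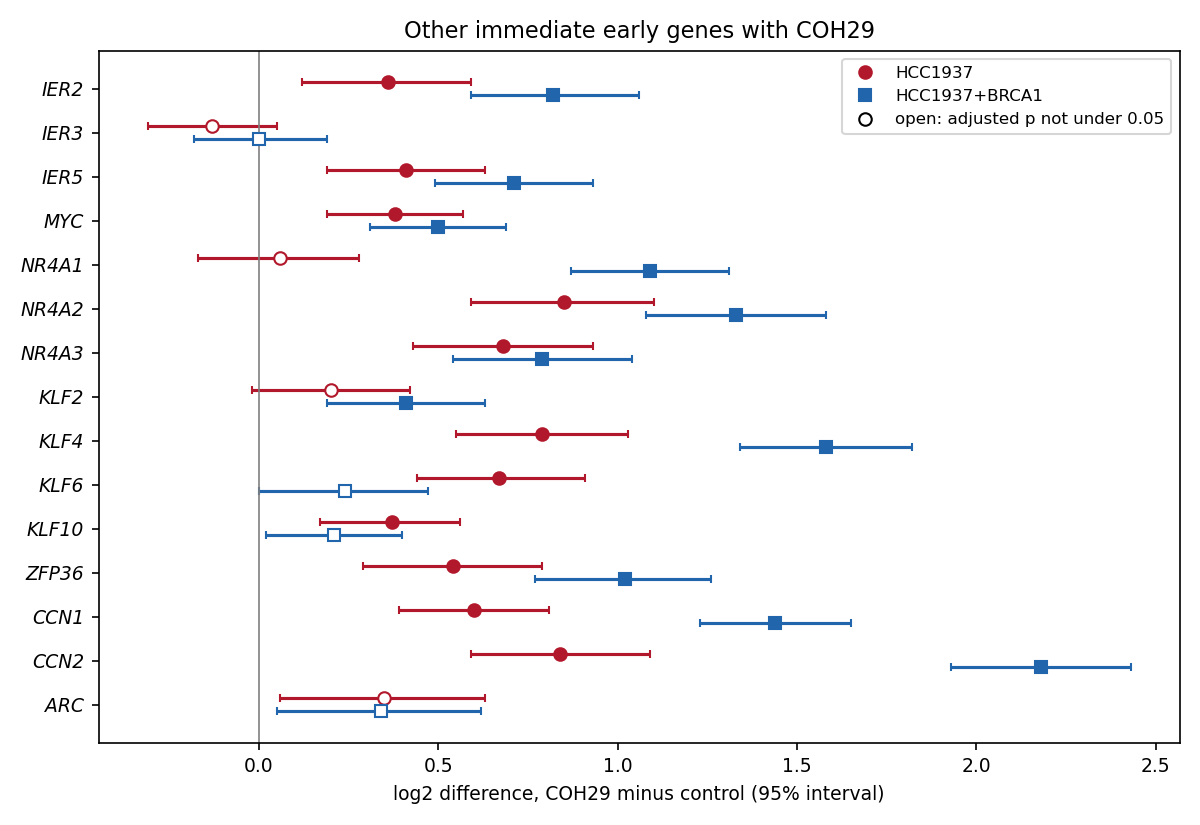
Log2 difference of COH29 minus control for 15 other immediate early genes with 95% intervals; circles are HCC1937, squares HCC1937+BRCA1, filled where the adjusted p was under 0.05. CCN2 lies at 0.84 in HCC1937 against 2.18 in HCC1937+BRCA1, and IER3 lies at -0.13 and 0.00.

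Of 10 measured AP-1 partners and related leucine zipper genes, 3 rose with COH29 in HCC1937 while 1 fell, and in HCC1937+BRCA1 5 rose while 2 fell. Beside these, 10.2% of all genes rose and 12.5% fell in HCC1937, and 13.6% and 20.1% in HCC1937+BRCA1. Differences of effects were called with a negative value in 0.543% of all genes. ATF3, a stress-induced repressor that pairs with JUN, rose by 1.02 ± 0.13 and 1.77 ± 0.13 (limma adjusted p = 0.000734 and 2.3e-05). Its difference of effects was -0.74 (adjusted p = 0.119), called with the trended variance (0.0478). The small MAF genes MAFF and MAFG, whose proteins lack an activation domain, rose by 0.31 and 0.51 in HCC1937 and by 1.19 and 0.69 in HCC1937+BRCA1. The MAFF call in HCC1937 was near the threshold (limma adjusted p = 0.042) and ended without any 1 array of that line (adjusted p from 0.0796 to 0.224) or either HCC1937+BRCA1 COH29 array (0.0571), after cyclic loess (0.065), with the trended variance (0.0528) and in a fit of that line alone (0.0606). MAFF was the 1 gene of the 10 whose effect differed between the lines (-0.87, limma adjusted p = 0.0242), a call that 7 of the 8 single-array omissions ended. MAF and the repressor gene JDP2 rose in HCC1937+BRCA1, by 0.39 and 0.85 (limma adjusted p = 0.0108 and 0.000516). The MAF call ended after cyclic loess (0.0676) and without COH29 replicate 1 (0.0512) or control replicate 1 (0.0718) of HCC1937+BRCA1. JDP2 was at 0.34 in HCC1937 (adjusted p = 0.0628), and it was called there under 7 alternatives: the median shift (0.0458), cyclic loess (0.0479), the filter on low levels (0.0338), the trended variance (0.0243), a fit of that line alone (0.0405) and omission of either HCC1937+BRCA1 control (0.027). ATF7, a relative of ATF2, fell by 0.96 in HCC1937 and by 1.13 in HCC1937+BRCA1 (limma adjusted p = 0.000182 and 3.54e-05), and ATF2 fell by 0.52 in HCC1937+BRCA1 (0.00297). In HCC1937 ATF2 was at -0.25 (limma adjusted p = 0.103), and it was called lower there with the trended variance (0.0206).

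Of 10 measured MAP kinase cascade genes, MAPK8, which encodes JNK1, rose by 0.50 in HCC1937 and 0.60 in HCC1937+BRCA1, and MAP2K3, a kinase for p38, by 0.50 and 0.70. MAPK3, which encodes ERK1, fell by 0.44 and 0.46 on the log2 scale, and MAP2K5, the kinase for ERK5, fell by 0.51 in HCC1937+BRCA1. In HCC1937 2 genes were thus higher and 1 was lower, and HCC1937+BRCA1 had 2 in each direction (limma adjusted p of 0.0117 or less). Among all genes, 10.2% were higher and 12.5% lower in HCC1937, and 13.6% and 20.1% in HCC1937+BRCA1. The MAPK3 call in HCC1937 ended without COH29 replicate 1 (adjusted p = 0.0588) or control replicate 1 (0.0918), and that of MAP2K3 without control replicate 2 (0.0518). MAP2K1 was at 0.29 in HCC1937+BRCA1 (adjusted p = 0.0519), and it was called after the median shift (0.0166) and cyclic loess (0.0129), without genes of low level (0.0278), with the trended variance (0.00796) and without HCC1937+BRCA1 COH29 replicate 1 (0.0336). MAPK7 was called there after the median shift (0.25, adjusted p = 0.037).

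Of 7 measured genes for SRF, ternary complex and CREB factors, 0 rose, 5 fell in HCC1937 and 4 fell in HCC1937+BRCA1, with medians of -0.33 and -0.31. The falls over all genes were 12.5% in HCC1937 and 20.1% in HCC1937+BRCA1, and the rises 10.2% and 13.6%. MRTFB, an SRF coactivator gene, fell by 0.80 in HCC1937 and by 1.12 in HCC1937+BRCA1 (limma adjusted p = 0.000184 and 1.55e-05). CREB1 fell by 0.36 and 0.76, CREM by 0.33 and 0.58, and ELK4 by 0.31 and 0.28. ELK3 fell by 0.72 in HCC1937 and was at -0.31 in HCC1937+BRCA1 (adjusted p = 0.0567). The ELK3 value in HCC1937+BRCA1 was called without genes of low level (0.0312), with the trended variance (0.033) and without HCC1937+BRCA1 control replicate 2 (0.0293). The ELK4 call in HCC1937+BRCA1 ended after the median shift (0.06) and cyclic loess (0.0887), in a fit of that line alone (0.0528), and on omitting either HCC1937+BRCA1 COH29 array (0.0624 and 0.0952) or HCC1937+BRCA1 control replicate 1 (0.131). SRF was at 0.27 and 0.11 (adjusted p = 0.0822 and 0.421), and the HCC1937 value was called after the median shift (0.0426) and cyclic loess (0.0391), without genes of low level (0.0456) and with the trended variance (0.0259). Leaving out COH29 replicate 1 or control replicate 1 of HCC1937 left 2 of the 5 falls there, and leaving out COH29 replicate 2 or control replicate 2 left 3. Of the EGR corepressor genes, NAB1 fell by 0.48 and 0.70 (limma adjusted p = 0.0335 and 0.00396), and NAB2 was at 0.11 in HCC1937 and rose by 0.44 in HCC1937+BRCA1 (0.00456). The NAB1 call in HCC1937 ended without any 1 array of that line (adjusted p from 0.0951 to 0.163), after the median shift (0.0532) and after cyclic loess (0.0522). EGR4 was at 0.19 and 0.17 (adjusted p = 0.462 and 0.457), and at 0.46 in HCC1937+BRCA1 without control replicate 2 of that line (0.0416).

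Of 17 measured textbook AP-1 and EGR target genes, 1 rose with COH29 in HCC1937 while 3 fell, and in HCC1937+BRCA1 4 rose while 3 fell, with medians of -0.02 and 0.08. All genes together had 10.2% rising and 12.5% falling in HCC1937, and 13.6% and 20.1% in HCC1937+BRCA1. A negative difference of effects was called for 0.543% of all genes. PLAUR, the urokinase receptor gene, rose by 0.54 and 0.83 (limma adjusted p = 0.00343 and 0.000195), while PLAU, the urokinase gene, fell by 0.52 and 0.38 (0.0035 and 0.0104). CCND1, a cyclin gene, fell by 0.44 in HCC1937 and by 0.52 in HCC1937+BRCA1. THBS1, which encodes the matrix protein thrombospondin, fell by 0.39 in HCC1937 and rose by 0.57 in HCC1937+BRCA1, a difference of effects of -0.97 ± 0.12 (limma adjusted p = 0.0117). PDGFA and MMP9 rose in HCC1937+BRCA1, by 0.79 and 0.36, and F3, the tissue factor gene, fell there by 0.48. The PDGFA difference of effects was -0.64 (adjusted p = 0.0571). It was called without genes of low level (0.0237), after the median shift (0.0444) and cyclic loess (0.027), and with the trended variance (0.0041). The MMP9 call ended after cyclic loess (0.0663) and without either replicate 2 array of HCC1937+BRCA1 (0.0513 and 0.0549). The collagenase genes MMP1 and MMP13 were at 0.22 and 0.03 in HCC1937 and at 0.09 and 0.17 in HCC1937+BRCA1, and did not pass the test. Their levels were low on all 8 arrays, between 5.23 and 5.92 for MMP1 and between 4.63 and 4.93 for MMP13. At such levels a change could go unseen. The CCND1 call in HCC1937 ended without COH29 replicate 1 (adjusted p = 0.0525) or control replicate 1 (0.0626) of that line, and that of THBS1 without control replicate 2 (0.0983). In HCC1937+BRCA1 the PLAU call ended without COH29 replicate 1 (0.0687) or control replicate 1 (0.0779). The THBS1 difference of effects lost its call without HCC1937 control replicate 2 (0.065) or HCC1937+BRCA1 COH29 replicate 1 (0.0508) or 2 (0.0577).

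Likeness of pattern was measured as the root mean square difference of log2 values centred per gene over the 8 arrays. Outside the 10 genes, those nearest to JUN were PPP1R15A (0.0937), which encodes the stress phosphatase subunit GADD34, ACER2 (0.11), a ceramidase gene, and PELI1 (0.111), a ubiquitin ligase gene. PPP1R15A averaged 10.23 ± 0.12 in HCC1937 with COH29, 9.12 ± 0.08 in HCC1937 controls, 10.68 ± 0.18 in HCC1937+BRCA1 with COH29 and 8.71 ± 0.06 in HCC1937+BRCA1 controls. Nearest to FOS were FEM1C (0.278), KLF4 (0.289) and GABARAPL1 (0.295). Nearest to EGR1 were MAFF (0.219), RNVU1-15 (0.219) and FBXO30 (0.22). FOS and EGR1 were nearer to each other (0.198) than to any of these. JUND was the nearest of the 9 genes to JUN (0.223), whereas FOS and JUN were 0.488 apart.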

How the data were processed

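The authors deposited log2 intensities, 1 value for each of 33297 probe sets on each of 8 arrays. The submitters' processing notes name RMA and Partek, with no version or role. RMA corrects background, equalises the distributions and summarises probes; after sorting, no 2 arrays were more than 0.297 apart at any rank. No detection p was used, and precision is limited by the number of arrays. The genome build and scan dates are not given in the sources used here. In the platform annotation 19460 probe sets name 1 gene, 1754 several and 12083 none; only the first kind was kept. The brightest probe set per gene gave 18417 genes, and 19429 of the 19460 probe sets matched a RefSeq gene identifier.

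A group-means model over all 8 arrays was fitted in R 4.3.3 by lmFit and eBayes of limma 3.58.1. All groups share the 4 residual degrees of freedom, because 2 arrays per group leave few. The script was tested on simulated data. Differences are COH29 minus control, or HCC1937 minus HCC1937+BRCA1, with moderated standard errors. Python 3.11.15, with pandas 2.3.3 and matplotlib 3.10.9, made the summaries and plots. Promoter windows come from RefSeq's table, which held 7 of the 9 measured genes.

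The members, gene lists and motifs were chosen with earlier results of these data known. All members are described. From each list the 4 genes with the smallest p in the mean COH29 effect of both lines are named, with genes behind a count of 5 or fewer; other listed genes were named after their values were seen. Nearest patterns were taken for JUN, FOS and EGR1, 3 genes each. Some listed genes were not analysed here.

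The alternatives were a filter at the 30th percentile of mean level, a shift to one median, cyclic loess, a trended and robust variance, a replicate block, averaged probe sets, a fit of only the groups compared, and omission of each array in turn. The lone partner of an omitted array is assumed to vary like the other groups.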

Additional observations from a re-analysis of the deposited data

Results flagged for a closer look

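For 3 genes the COH29 effect differed between the lines in the interaction test of the limma fit. The effect in HCC1937 minus that in HCC1937+BRCA1 was -1.71 for FOS (adjusted p = 0.0145), -0.95 for JUN (adjusted p = 0.0117) and -1.27 for EGR1 (adjusted p = 0.0429). For FOS and EGR1 the HCC1937+BRCA1 controls were the arrays that stood apart, at 9.22 and 9.37 for FOS and at 10.31 and 10.58 for EGR1. For JUN the lines differed with and without COH29, in opposite directions. Each of the 3 calls ended without at least 1 array, as given beside the values in the results.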

How the results depend on the processing

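Over the 9 genes and 5 comparisons, 666 values were recomputed under the alternatives: 608 kept their side of the threshold, 50 lost the call and 8 gained one, and 0 values called in either fit changed sign. Among the 608, 8 uncalled values changed sign, for FOS, EGR1 and EGR3 with COH29 in HCC1937, JUND between untreated lines and FOSL1 between lines under COH29. Calls held under every alternative for 2 of 3 genes with COH29 in HCC1937, 6 of 8 in HCC1937+BRCA1, 0 of 3 for the difference of effects, 4 of 7 between untreated lines and 1 of 3 between lines under COH29. With the trended and robust variance, 1 gene (FOSL1) was lower with COH29 in HCC1937+BRCA1. Between lines under COH29, 1 gene (EGR3) was higher without genes below the 30th percentile and 1 (EGR3) after cyclic loess. Leaving out each array gave 0 to 2 genes with the smaller effect in HCC1937, 0 to 1 lower in untreated HCC1937, and 0 to 1 higher and 1 to 3 lower in HCC1937 under COH29. Across all genes, those omissions gave 41 to 67 differences of effects against 176 with every array, and fewer arrays leave fewer degrees of freedom. Without genes of low level there were 351, with the trended variance 566 and with the replicate block 106. Of these calls 43.2% had the larger value in HCC1937, against 53.6% without genes of low level, 57.8% with the trended variance, 34.9% after the median shift and 33.3% after cyclic loess. With COH29 in HCC1937 the omissions gave 2336 to 4012 calls against 4179. Deviations of same-numbered arrays correlated at -0.204 to 0.26, highest between HCC1937+BRCA1 with COH29 and HCC1937+BRCA1 controls. With 2 arrays per group these values cannot settle whether same-numbered arrays were paired. The replicate block ended 1 call among the 9 genes, EGR1 in the difference of effects (adjusted p = 0.0742). The cause of the other changes was not tested.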
